A study of Mus musculus with 18 samples.

Results

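Chemokines and their receptors were described across knockout (KO) and wild-type (WT) thymic epithelial cells (TEC) of the mouse. The set holds every gene whose symbol starts with Ccl, Cxcl, Ccr, Cxcr or Ackr followed by a number and at most 1 letter, together with Xcl1, Xcr1, Cx3cl1 and Cx3cr1. These were 61 of the 27179 genes counted, made up of 39 chemokines, 18 receptors that signal through G proteins and 4 atypical receptors. RNA was sequenced from 3 sorted TEC subsets of C57BL/6 mice: medullary cells with high MHC class II (mTEChi), medullary cells with low MHC class II (mTEClo), and cortical cells (cTEC). The KO mice lacked Kat7, a histone acetyltransferase that acetylates lysines of the histone H3 tail, and were set against WT mice. KO mTEChi, WT mTEChi, KO mTEClo, WT mTEClo, KO cTEC and WT cTEC had 3 libraries each, from KO mouse pools 4, 5 and 6 and WT mouse pools 1, 2 and 3, and each pool gave 1 library of each subset. The age of the mice, the number per pool, the form of the Kat7 allele and any Cre driver are not stated in the labels. Every KO library came from other pools than every WT library, so genotype and pool cannot be told apart.

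Chemokines are small secreted proteins that form gradients and guide cells that carry matching receptors, most of which couple to inhibitory G proteins. Atypical receptors bind chemokines without that coupling and remove or redistribute them. In the thymus, Ccl25, Cxcl12, Ccl19 and Ccl21 made by stromal cells bring in progenitors and guide thymocytes between cortex and medulla through Ccr9, Cxcr4 and Ccr7, and ligands of Ccr4 are made in the medulla.

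The libraries held 3554089 to 20054360 counts assigned to genes, and the members of the set took 0.209% to 0.565% of them. Levels are given as CPM, the usual unit of counts scaled to library size, in pool order. Kat7 itself had 0.765 to 4.16 CPM in the 9 KO libraries and 38.6 to 83.4 CPM in the 9 WT libraries. Markers set mTEChi apart from cTEC. Aire, which drives self-antigen expression in the medulla, had 633 to 703 CPM in KO mTEChi and 1096 to 1229 CPM in WT mTEChi. It had 11.7 to 22.4 CPM in KO cTEC and 28.3 to 75.8 CPM in WT cTEC. In mTEClo Aire had 24.8 to 55.1 CPM in KO and 26.2 to 59.3 CPM in WT, so it did not separate WT mTEClo from WT cTEC. Psmb11, the cortical proteasome subunit, had 79.7 to 105 CPM in KO mTEChi and 19.8 to 22.2 CPM in WT mTEChi, against 429 to 917 CPM in KO cTEC and 142 to 278 CPM in WT cTEC. In mTEClo Psmb11 had 47.7 to 93.6 CPM in KO and 14.9 to 20.3 CPM in WT, below cTEC. A list of 7 immature medullary markers summed to 3578 to 3899 CPM in KO cTEC and 4593 to 5415 CPM in WT cTEC, without overlap. In mTEClo it summed to 4734 to 6032 CPM in KO and 5858 to 6566 CPM in WT. In KO cTEC 2 of its genes were higher and 2 lower. Of 7 markers of medullary cells with high MHC class II, 4 were lower and 0 higher in KO cTEC. Of all tested genes 26.7% were lower there. Whether the cTEC libraries hold medullary cells, and their part in the cTEC results below, was not tested. Markers of other cells also moved with genotype. The summed level of the tuft cell list was 862 to 956 CPM in KO mTEChi against 259.6 to 367 CPM in WT mTEChi, 3107 to 3334 CPM in KO mTEClo against 1474 to 2291 CPM in WT mTEClo, and 152 to 180.3 CPM in KO cTEC against 828 to 1462 CPM in WT cTEC. The summed level of macrophage and dendritic cell markers was 921 to 1092 CPM in KO mTEChi against 1669.9 to 1729 CPM in WT mTEChi, and 60.8 to 72.1 CPM in KO cTEC against 184 to 234 CPM in WT cTEC. Clec9a, a dendritic cell marker of that list, was at 0 in every mTEClo library. Of 10 immediate early and heat shock genes, 3 were lower and 0 higher in KO mTEChi, 6 lower and 0 higher in KO mTEClo, and 6 lower and 0 higher in KO cTEC. Shares of counts that can reflect RNA quality also moved with genotype in medullary libraries. In mTEClo, Rn45s (ribosomal precursor RNA) took 0.307% to 0.42% in KO against 0.974% to 1.23% in WT, Lars2 took 1.04% to 1.46% in KO against 2.27% to 3.57% in WT, and mitochondrial genes took 0.144% to 0.196% in KO against 0.262% to 0.472% in WT. In mTEChi, Lars2 and mitochondrial genes were likewise lower in KO without overlap, and in cTEC all 3 shares overlapped. Their part in the results below was not tested.

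**Figure D1:**
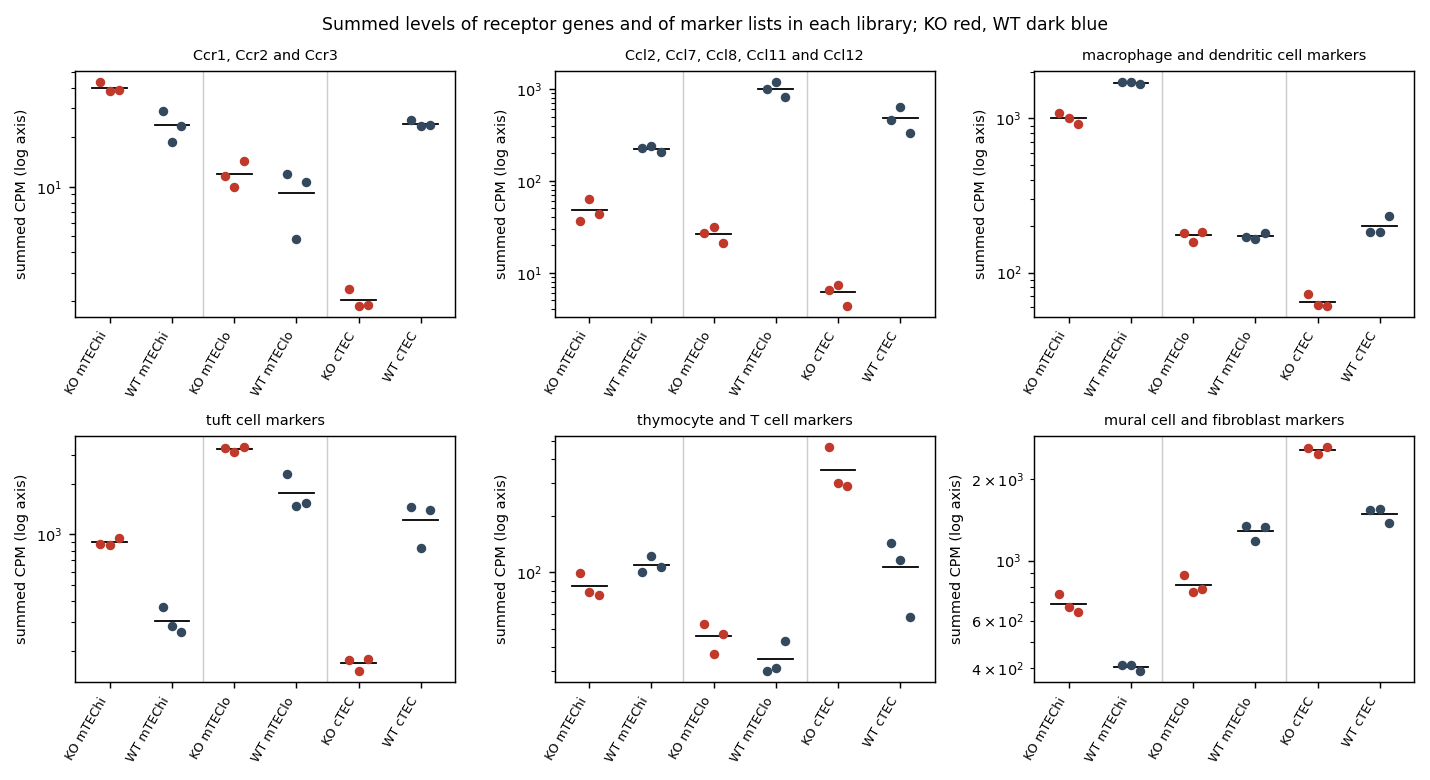
Summed CPM per library (points, log y axis, lines show group means) of 2 groups of set members and 4 lists of other cells, KO libraries left of WT libraries in each subset. The tuft cell and macrophage or dendritic cell sums move in the same direction as the summed Ccr1, Ccr2 and Ccr3 in cTEC, where the receptor sum was 1.88 to 2.38 CPM in KO and 23.5 to 25.5 CPM in WT libraries.

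Loss of Kat7 went with lower levels of many chemokines in all 3 subsets, and with higher Ccl25 and Cxcl12. After a filter on low counts 57 of the 61 members were tested, each with edgeR's quasi-likelihood test and Benjamini-Hochberg adjustment over 19364 genes at a threshold of 0.05. In mTEChi 25 members were lower and 6 higher in KO (43.9% and 10.5% of those tested), where 19.3% of all tested genes were lower, 17.1% higher and 36.4% called in either direction. In mTEClo 24 were lower and 8 higher (42.1% and 14%), where 15.8% of all tested genes were lower, 18.9% higher and 34.7% called in either direction. In cTEC 30 were lower and 11 higher (52.6% and 19.3%), where 26.7% of all tested genes were lower, 22.3% higher and 49.0% called in either direction. The median log2 fold change of the 57 members was -0.60 in mTEChi, -0.75 in mTEClo and -1.36 in cTEC, against -0.11, 0.01 and -0.02 for all genes tested. Members that passed the filter through WT counts alone had to be lower, so these shares and medians describe the tested members and do not support a statement about the set. In sorted bulk samples, fewer cells of a type and less RNA per cell cannot be told apart.

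By role, the counts were as follows, to be read beside the shares of all tested genes above and under the same limit of the filter. Of 37 tested chemokines, 21 were lower and 3 higher in KO mTEChi, 18 lower and 6 higher in KO mTEClo, and 21 lower and 8 higher in KO cTEC. Of 16 tested G protein-coupled receptors, 3 were lower and 2 higher in KO mTEChi, 4 lower and 1 higher in KO mTEClo, and 7 lower and 2 higher in KO cTEC. The share of receptors called in either direction, 31.2% in mTEChi and 31.2% in mTEClo, was below that of all tested genes (36.4% and 34.7%). In cTEC it was 56.2%, above the 49.0% of all tested genes. Whether chemokines and receptors differ was not tested. The 13 members lower in KO in every subset were Ccl2, Ccl6, Ccl7, Ccl8, Ccl11, Ccl19, Ccl20, Ccl22, Cxcl5, Cxcl9, Cxcl14, Ccr4 and Ccr7, where 4.61% of all tested genes showed that pattern. Of these, Cxcl9 and Ccl19 in mTEChi and Cxcl5 and Ccr4 in mTEClo lost their call when single libraries were left out (edgeR adjusted p up to 0.144, 0.0938, 0.0677 and 0.0985). Cxcl12 and Ccl25 were higher in KO in every subset, a pattern of 5.00% of all tested genes. Another 8 members were called in opposite directions in different subsets, where 7.56% of all tested genes were. The 9 members called in no subset, where 28.3% of all tested genes were called in none, were Ccl4, Ccl5, Ccl24, Ccr6, Ccr10, Cxcr3, Cxcr5, Cxcr6 and Xcr1, of which all but Ccl24 and Ccr10 passed the test in some subset under at least 1 alternative setting.

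**Figure D2:**
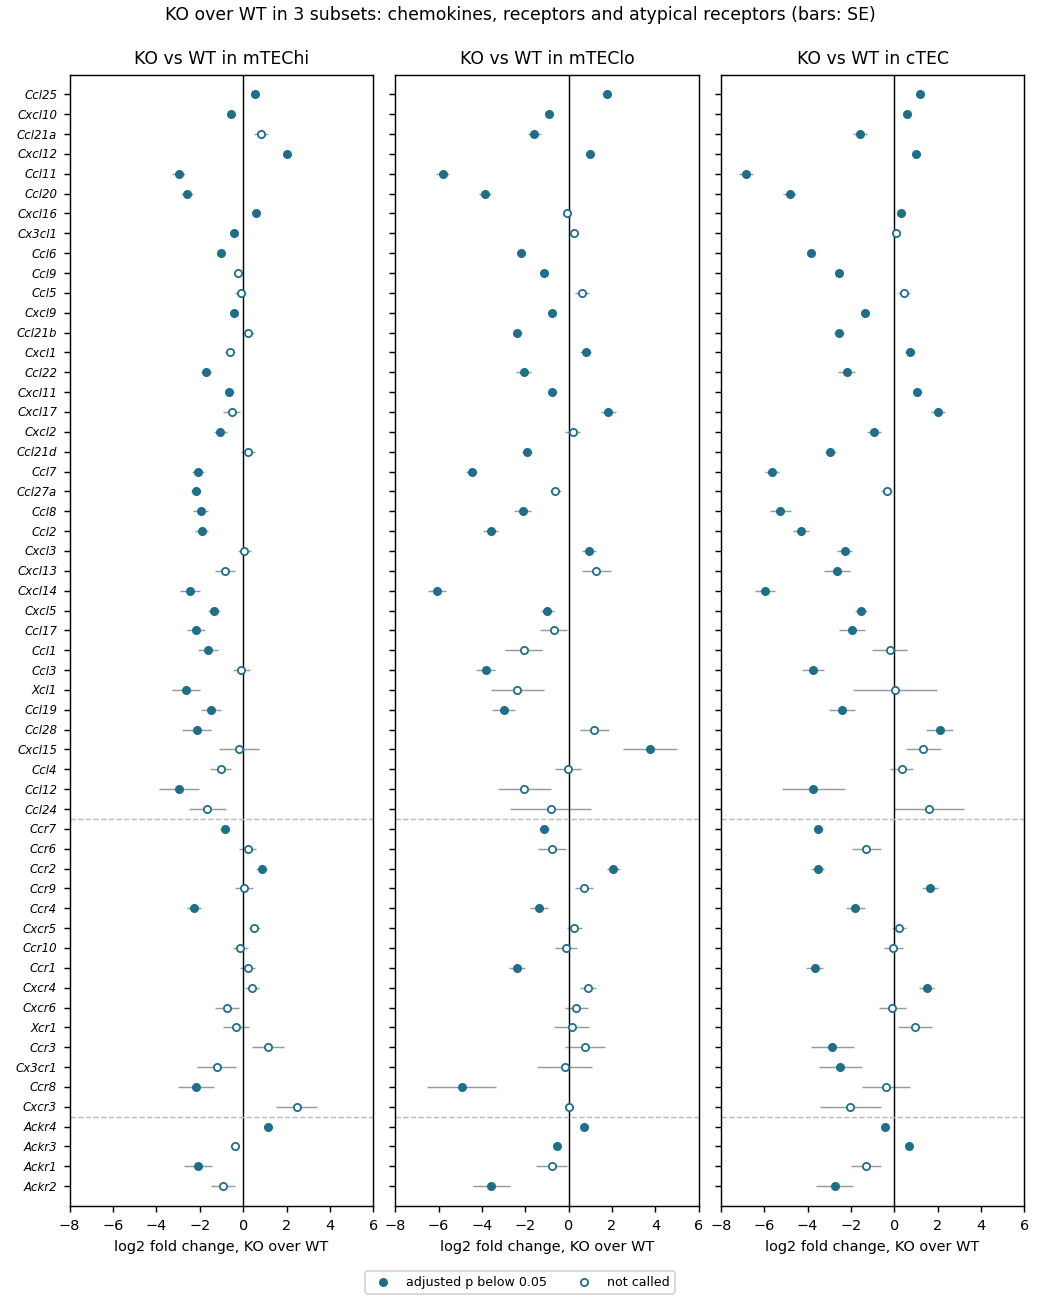
Log2 fold change of KO over WT (x axis, error bars show the SE) for 56 tested members in mTEChi, mTEClo and cTEC, with filled points for an edgeR adjusted p under 0.05. Ccl11, Ccl7 and Cxcl14 lie far left in mTEClo and cTEC, while Ccl25 and Cxcl12 lie right of 0 in all 3 panels.

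The summed level of all members differed by subset. It was 3799.5 to 4200.0 CPM in KO mTEChi against 4811 to 5062 CPM in WT mTEChi, and 2040.2 to 2394 CPM in KO mTEClo against 4552 to 4859 CPM in WT mTEClo. In cTEC it was 4174 to 5902 CPM in KO and 4028 to 5418 CPM in WT, so the cTEC groups overlapped in their total while their makeup differed.

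On a scale of CPM per kilobase of gene length, which allows genes to be compared, WT mTEChi held most Cxcl10 (1180.1 ± 120.3, SD, n = 3), then Ccl25 (831 ± 31.5), Ccl20 (567 ± 28.6) and Ccl5 (333 ± 44), and the ranges of these 4 did not overlap. WT mTEClo held most Ccl21a (1781 ± 30.3 CPM per kilobase), then Ccl11 (804 ± 147) and Cxcl10 (618 ± 72.5), whose ranges overlapped each other, and Ccl20 (296 ± 59.2). In WT cTEC the order was Ccl21a (861 ± 195 CPM per kilobase), Ccl25 (642 ± 176), Ccl20 (563 ± 101), Ccl11 (355 ± 115) and Cxcl10 (319.9 ± 41.3), and each of these overlapped its neighbour in range. KO cells showed another order, with Ccl25 in front in KO mTEChi (1202 CPM per kilobase, before Cxcl10 at 787) and in KO cTEC (1465, before Cxcl10 at 476). In KO mTEClo Ccl21a still led at 592 ± 227 CPM per kilobase, before Cxcl10 at 327 and Ccl25 at 285. Among receptors, Ccr7 led in mTEChi with 31.9 CPM per kilobase in KO and 58.2 in WT, and Ackr4 led in cTEC with 58.8 in KO and 78.9 in WT.

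**Figure D3:**
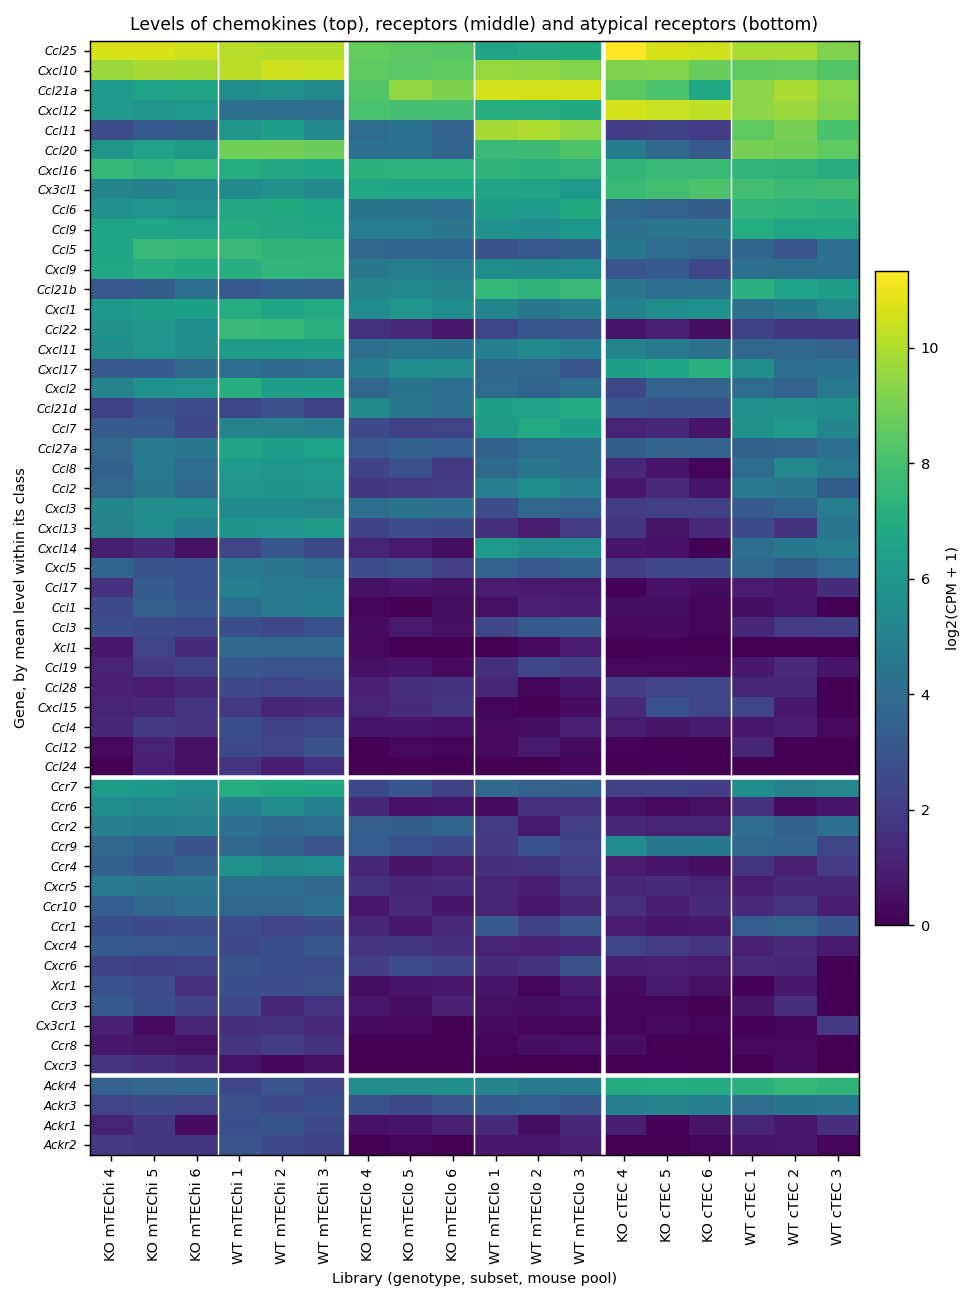
Level of 56 tested members (rows) in each of the 18 libraries (columns, KO left of WT within each subset) as log2(CPM + 1), shown by colour. Brighter colours are higher levels: Ccl25 and Cxcl12 are brighter in KO columns, and Ccl11, Ccl7, Ccl2, Ccl8 and Ccl20 are darker in KO columns of every subset.

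Ccl25, the ligand of Ccr9 and a product of Foxn1-dependent epithelium, lies at chr8:4325205-4360020 in GRCm38.p6, the build equivalent to mm10. It had 397, 359.9 and 332 CPM in KO mTEClo, against 95.8, 112 and 116 CPM in WT mTEClo. Every KO mTEClo library was above every WT one, with a log2 fold change of 1.75 ± 0.20 (SE, edgeR adjusted p = 1.38e-06). In cTEC the KO libraries had 2579.7, 1579 and 1443 CPM, against 945, 949.5 and 559 CPM in WT libraries. That log2 fold change was 1.19 ± 0.19 (SE, edgeR adjusted p = 4.2e-05), and KO pool 4 stood highest. In mTEChi the KO libraries had 1579, 1596 and 1419 CPM and the WT libraries 1104, 1036 and 1034 CPM, again without overlap. The mTEChi log2 fold change of 0.53 ± 0.19 (SE, edgeR adjusted p = 0.0351) lost its call with size factors of the relative log expression type (0.49, edgeR adjusted p = 0.0595) and when any of 5 of the 6 mTEChi libraries was left out (edgeR adjusted p = 0.055 to 0.0892).

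Cxcl12, the ligand of Cxcr4 and Ackr3 and a retention signal for early progenitors, lies at chr6:117168535-117181368. In mTEChi it had 68.8, 62.6 and 69.2 CPM in KO, against 17.2, 17.1 and 15 CPM in WT, a log2 fold change of 2.03 ± 0.14 (SE, edgeR adjusted p = 1.02e-08). In mTEClo it had 278, 250.4 and 248 CPM in KO, against 136, 134 and 116 CPM in WT (log2 fold change 1.00 ± 0.12 SE, edgeR adjusted p = 3.54e-06). In cTEC, where Cxcl12 was most abundant, it had 1516, 1351 and 1186 CPM in KO, against 661, 779 and 559.7 CPM in WT (log2 fold change 1.02 ± 0.12 SE, edgeR adjusted p = 1.09e-06). No KO library overlapped a WT library in any subset. The rise was larger in mTEChi than in mTEClo by 1.02 ± 0.19 on the log2 scale (SE, edgeR adjusted p = 0.000852 for the difference). In WT cells Cxcl12 was lower in mTEChi than in cTEC by a log2 difference of -5.35 (edgeR adjusted p = 4.36e-15), with means of 16.4 and 666 CPM. Genes of mural cells and fibroblasts, which also make Cxcl12, summed to 647 to 751 CPM in KO mTEChi against 390.5 to 413 CPM in WT mTEChi, 764 to 882 CPM in KO mTEClo against 1177 to 1336 CPM in WT mTEClo, and 2477 to 2622 CPM in KO cTEC against 1379.9 to 1550.3 CPM in WT cTEC. Of the 12 genes of this list, 3 were higher and 4 lower in KO mTEChi, 3 higher and 4 lower in KO mTEClo, and 2 higher and 8 lower in KO cTEC. In KO cTEC the sum was mostly carried by Dcn, a proteoglycan gene, at 2053 CPM on average against 611 CPM in WT cTEC, while Col3a1, a fibroblast collagen gene, was at 12.1 CPM in KO cTEC and 156 CPM in WT cTEC. The part of these cells in the Cxcl12 values was not tested.

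**Figure D4:**
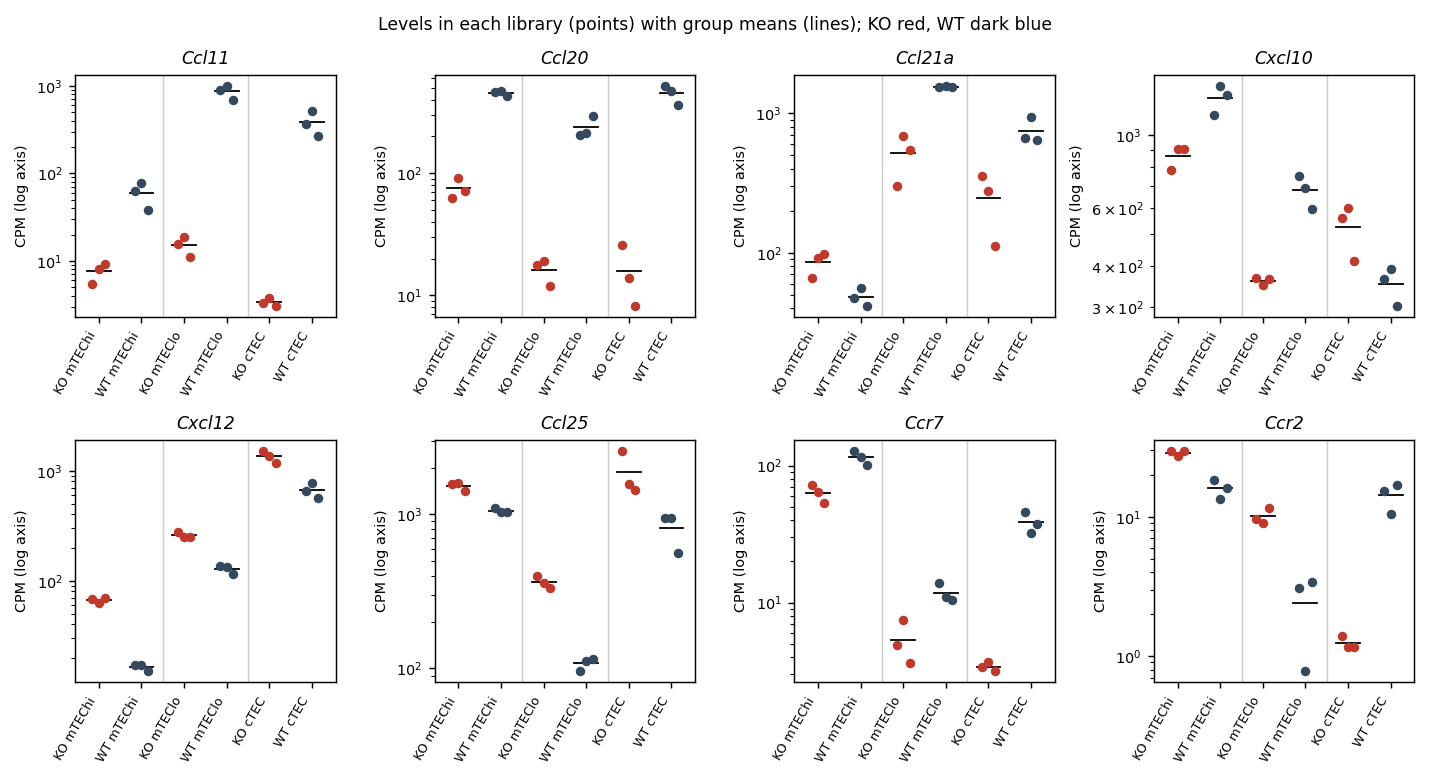
CPM in each library (points, log y axis, lines show group means) of Ccl11, Ccl20, Ccl21a, Cxcl10, Cxcl12, Ccl25, Ccr7 and Ccr2, KO libraries left of WT libraries in each subset. KO and WT libraries do not overlap for Ccl11, Ccl20, Cxcl12 and Ccl25 in any subset, Cxcl10 is lower in KO mTEChi and KO mTEClo but higher in KO cTEC, and Ccr2 is higher in KO mTEChi and KO mTEClo but lower in KO cTEC.

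Ccl11, Ccl2, Ccl7, Ccl8 and Ccl12 attract monocytes, eosinophils and other myeloid cells through receptors such as Ccr2 and Ccr3, and lie side by side on chromosome 11 with Ccl1. This neighbourhood, chr11:82035577-82179812 and 144 kb long, held 6 tested members. In KO all 6 were lower in mTEChi, 4 in mTEClo and 5 in cTEC, and none was higher. Of all tested genes 19.3%, 15.8% and 26.7% were lower in these subsets. In mTEChi the calls of Ccl12 and Ccl1 were lost when single libraries were left out (edgeR adjusted p up to 0.0752 and 0.0717). The 5 genes other than Ccl1 summed to 48.4 ± 14.1 CPM in KO mTEChi and 224 ± 14.9 CPM in WT mTEChi, to 26.4 ± 5.04 CPM in KO mTEClo and 1008 ± 185 CPM in WT mTEClo, and to 6.09 ± 1.56 CPM in KO cTEC and 478 ± 153 CPM in WT cTEC (SD, n = 3 each). The KO and WT ranges of this sum did not overlap in any subset.

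Ccl11, the eosinophil attractant eotaxin at chr11:82057832-82062955, made up most of that sum in WT mTEClo and WT cTEC. It had 15.8, 18.8 and 11.2 CPM in KO mTEClo, against 885, 1007 and 695 CPM in WT mTEClo. The cTEC levels were 3.3, 3.75 and 3.05 CPM in KO, against 367, 510.4 and 266 CPM in WT. The mTEChi levels were 5.5, 8.12 and 9.13 CPM in KO, against 62.6, 78.3 and 38.6 CPM in WT. These groups were far apart in each subset, with log2 fold changes of -5.82 ± 0.29 in mTEClo (SE, edgeR adjusted p = 3.91e-11), -6.82 ± 0.32 in cTEC (SE, edgeR adjusted p = 7.47e-12) and -2.98 ± 0.29 in mTEChi (SE, edgeR adjusted p = 4.25e-07). The fall was smaller in mTEChi than in mTEClo by 2.84 ± 0.39 on the log2 scale (SE, edgeR adjusted p = 4.96e-05 for the difference). WT mTEChi had less Ccl11 than WT mTEClo to begin with, at 59.8 and 862 CPM on average (log2 difference -3.85, edgeR adjusted p = 3.05e-10).

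The neighbours of Ccl11 were lower as well. Ccl7, which attracts monocytes, had 5, 3.6 and 4.03 CPM in KO mTEClo, against 77, 119.7 and 84 CPM in WT mTEClo (log2 fold change -4.48 ± 0.27 SE, edgeR adjusted p = 4.21e-10). In cTEC Ccl7 had 1.12, 1.49 and 0.578 CPM in KO, against 54.7, 67.4 and 35.6 CPM in WT (log2 fold change -5.65 ± 0.32 SE, edgeR adjusted p = 5.23e-11). In mTEChi it had 8.49, 8.8 and 4.71 CPM in KO, against 32.9, 32.5 and 30 CPM in WT (log2 fold change -2.08 ± 0.27 SE, edgeR adjusted p = 1.01e-05). Ccl2, the main ligand of Ccr2, stood apart in the same way, with 2.43, 2.82 and 3.11 CPM in KO mTEClo and 28.2, 45.3 and 28.1 CPM in WT mTEClo (log2 fold change -3.59 ± 0.34 SE, edgeR adjusted p = 1.17e-07). Its log2 fold change was -1.90 ± 0.30 in mTEChi (SE, edgeR adjusted p = 9.74e-05) and -4.30 ± 0.39 in cTEC (SE, edgeR adjusted p = 2.57e-08). Ccl8, a further ligand of monocyte and eosinophil receptors, had 1.39, 0.583 and 0.158 CPM in KO cTEC, against 15.1, 39 and 24.6 CPM in WT cTEC. Its log2 fold change there was -5.26 ± 0.49 (SE, edgeR adjusted p = 3.8e-08) and reached -6.20 without KO pool 4. Ccl12 was near the floor in mTEClo and cTEC, and its cTEC call rested on WT pool 1: the log2 fold change of -3.74 became -0.27 without it (edgeR adjusted p = 0.925). Macrophage and dendritic cell markers, from cells that also make these chemokines, summed to 157 to 184 CPM in KO mTEClo against 164 to 180.4 CPM in WT mTEClo, ranges that overlapped. In mTEChi and cTEC these markers were lower in KO. Mural cell and fibroblast genes summed to 764 to 882 CPM in KO mTEClo against 1177 to 1336 CPM in WT mTEClo, without overlap. The sum of this second list was higher in KO in mTEChi and cTEC. In mTEChi and in mTEClo, 3 of its 12 genes were higher and 4 lower in KO. In cTEC 2 were higher and 8 lower. The part of the cells of either list in the chemokine values was not tested.

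Of these 5 genes, Ccl2, Ccl7 and Ccl11 had no matched promoter window. Ccl8 and Ccl12 sit next to each other and had such a window. Their upstream sequence is shown, 250 bases before the transcription start from RefSeq (GRCm38.p6, both on the + strand), with a TATAAA motif in capitals. The motif starts at position -32 for Ccl8 (chr11:82114935-82115184) and -31 for Ccl12 (chr11:82101595-82101844), counted from the transcription start.
Ccl8: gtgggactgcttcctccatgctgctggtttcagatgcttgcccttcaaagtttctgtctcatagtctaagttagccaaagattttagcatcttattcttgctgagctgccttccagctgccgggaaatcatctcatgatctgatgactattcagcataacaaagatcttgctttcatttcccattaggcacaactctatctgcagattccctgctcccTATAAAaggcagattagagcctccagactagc
Ccl12: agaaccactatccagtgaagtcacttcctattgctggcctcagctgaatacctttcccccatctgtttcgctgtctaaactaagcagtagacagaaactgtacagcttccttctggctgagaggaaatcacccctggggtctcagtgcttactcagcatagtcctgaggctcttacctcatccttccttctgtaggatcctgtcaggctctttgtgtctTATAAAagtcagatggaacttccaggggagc

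**Figure D5:**
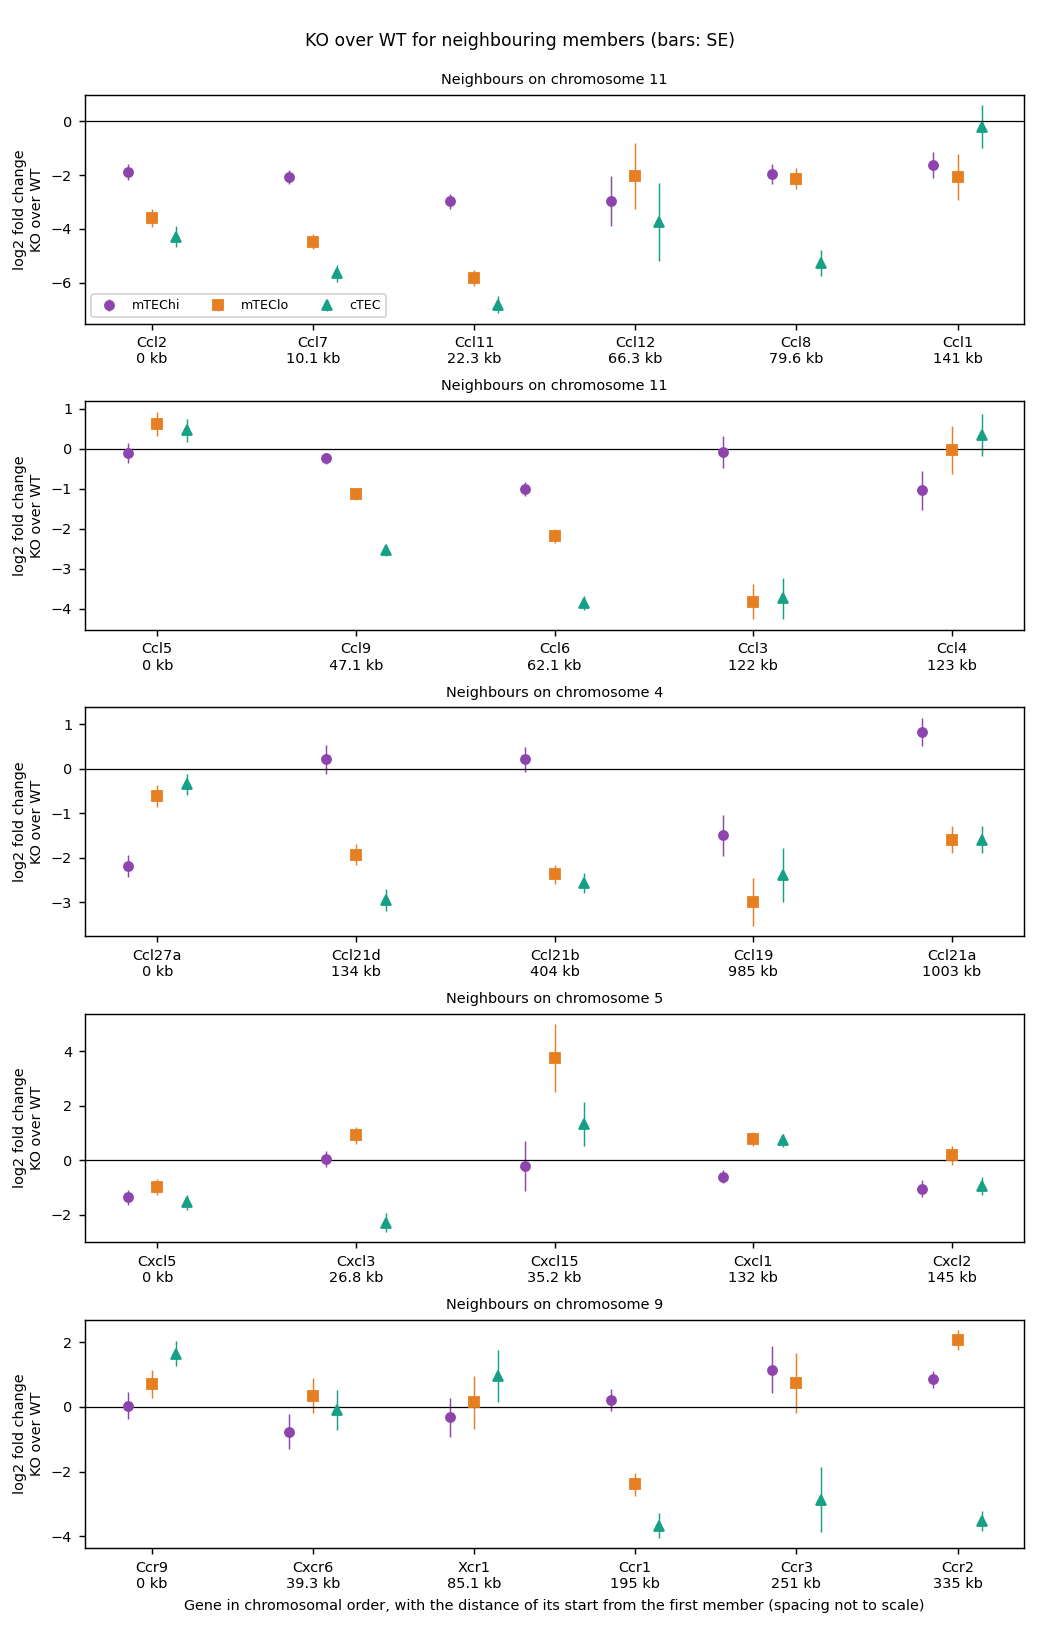
Log2 fold change of KO over WT (y axis, error bars show the SE) for members in chromosomal order (x axis, evenly spaced, labelled with the distance in kilobases from the leftmost member) on chromosomes 11, 4, 5 and 9. All 6 members from Ccl2 to Ccl1 lie below 0 in the 3 subsets, while Ccr2 on chromosome 9 lies above 0 in mTEChi and mTEClo and below 0 in cTEC.

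Along the chromosome, members next to each other did not always move together. In the neighbourhood of Ccl5, Ccl9, Ccl6, Ccl3 and Ccl4 (chr11:83525778-83664683), 1 member was lower in mTEChi, 3 in mTEClo and 3 in cTEC, and none was higher in KO. Of all tested genes 19.3%, 15.8% and 26.7% were lower in these subsets. Ccl6, a macrophage attractant of rodents, had 12.7, 11.1 and 9.2 CPM in KO cTEC, against 169, 159.7 and 149 CPM in WT cTEC (log2 fold change -3.86 ± 0.18 SE, edgeR adjusted p = 1.06e-11). In mTEClo Ccl6 had 20.5, 19.6 and 16.6 CPM in KO, against 72.7, 67.1 and 117 CPM in WT (log2 fold change -2.18 ± 0.17 SE, edgeR adjusted p = 1.26e-08). Ccl9, a related Ccr1 ligand, had 17.8, 20.8 and 21.6 CPM in KO cTEC, against 129, 108 and 111 CPM in WT cTEC (log2 fold change -2.53 ± 0.14 SE, edgeR adjusted p = 4.48e-11). In mTEChi Ccl9 had 101, 103 and 88.5 CPM in KO and 125, 113 and 109 CPM in WT and was not called. Its KO effect differed between mTEChi and cTEC by 2.29 ± 0.19 on the log2 scale (SE, edgeR adjusted p = 2.37e-08). Ccl3, an inflammatory ligand of Ccr1, had 0.27, 0.789 and 0.408 CPM in KO mTEClo, against 4.39, 8.29 and 8.92 CPM in WT mTEClo (log2 fold change -3.83 ± 0.44 SE, edgeR adjusted p = 1.75e-06). Ccl3 did not pass the test in mTEChi, with means of 5.15 and 5.48 CPM in KO and WT. Ccl5, a T cell and monocyte attractant and the most abundant of the 5 in mTEChi, had 103, 200.4 and 188 CPM in KO mTEChi and 204, 163 and 164 CPM in WT mTEChi, which overlapped (log2 fold change -0.11 ± 0.25 SE, edgeR adjusted p = 0.76). Ccl3 and Ccl4 overlap in the annotation and the library kit does not keep the strand, so their split is uncertain.

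Ccl20, the ligand of Ccr6 and a target of NF-kappaB signalling in epithelium, lies at chr1:83116766-83119167. It had 62.9, 90.6 and 71.8 CPM in KO mTEChi, against 461, 474 and 429.7 CPM in WT mTEChi. In mTEClo it had 17.9, 19 and 12 CPM in KO, against 205, 215 and 292 CPM in WT. KO and WT cTEC were further apart, with 25.9, 13.9 and 8.2 CPM in KO against 520.4, 472 and 362 CPM in WT. Every KO library was far below every WT library of its subset, with log2 fold changes of -2.59 ± 0.27 in mTEChi (SE, edgeR adjusted p = 1.14e-06), -3.86 ± 0.29 in mTEClo (SE, edgeR adjusted p = 7.4e-09) and -4.83 ± 0.31 in cTEC (SE, edgeR adjusted p = 2.19e-10). The receptor Ccr6 did not pass the test in any subset, and had 44.9, 38.6 and 37.4 CPM in KO mTEChi and 30.7, 43 and 31 CPM in WT mTEChi. In cTEC Ccr6 was under 3 CPM in every library and was called only without WT pool 2 (log2 fold change -1.75, edgeR adjusted p = 0.0304).

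The upstream sequence of Ccl20 is shown because, of the members lower in all 3 subsets whose promoter was matched, it carries a kappaB consensus match in this window (RefSeq, GRCm38.p6, chr1:83116516-83116765, + strand). The capitals mark that match, at position -80.
Ccl20: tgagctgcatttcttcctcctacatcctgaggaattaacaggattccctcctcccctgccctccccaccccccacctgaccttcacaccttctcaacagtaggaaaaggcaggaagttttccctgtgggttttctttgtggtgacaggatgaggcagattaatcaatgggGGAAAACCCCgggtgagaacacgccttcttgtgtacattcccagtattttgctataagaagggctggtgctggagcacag

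Ccl22 and Ccl17, the ligands of Ccr4, guide thymocytes and regulatory T cells towards medullary cells and dendritic cells. Ccl22 had 55.7, 63.5 and 44.5 CPM in KO mTEChi, against 207, 184 and 146 CPM in WT mTEChi (log2 fold change -1.71 ± 0.23 SE, edgeR adjusted p = 1.28e-05). Among WT subsets it was highest in mTEChi, with 179 CPM on average against 6.25 CPM in WT mTEClo (log2 difference 4.86 ± 0.28 SE, edgeR adjusted p = 2.32e-11). Ccl17 had 2.03, 8.73 and 6.18 CPM in KO mTEChi, against 29.6, 24.1 and 24.7 CPM in WT mTEChi (log2 fold change -2.18 ± 0.42 SE, edgeR adjusted p = 0.000501). In cTEC both were under 4 CPM on average, and the Ccl17 call there was lost without WT pool 3 (log2 fold change -1.36, edgeR adjusted p = 0.0847). Their receptor Ccr4 had 10.3, 7.67 and 10.5 CPM in KO mTEChi, against 53.2, 41 and 43.7 CPM in WT mTEChi (log2 fold change -2.28 ± 0.32 SE, edgeR adjusted p = 2.77e-05). Ligands and receptor were thus lower in the same KO libraries. The macrophage and dendritic cell markers were also lower in KO mTEChi (9 of 14 tested lower, 2 higher), and their part in the Ccl17 and Ccl22 values was not tested.

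Other mTEChi chemokines fell with them. Ccl27a, an attractant of skin-homing T cells through Ccr10, had 12.3, 25.6 and 21.2 CPM in KO mTEChi, against 96.4, 80.5 and 94 CPM in WT mTEChi (log2 fold change -2.18 ± 0.24 SE, edgeR adjusted p = 1.89e-06). Ccl27a overlaps Il11ra1 and has a close copy, Ccl27b, so its counts are uncertain. Xcl1, which medullary cells make to place Xcr1-bearing dendritic cells, had 0.717, 3.8 and 1.77 CPM in KO mTEChi, against 14.1, 13.3 and 13.3 CPM in WT mTEChi. Its log2 fold change of -2.64 ± 0.65 (SE, edgeR adjusted p = 0.00378) became -3.44 without KO pool 5. Xcr1 itself was not called, with 4.58 ± 2.21 CPM in KO mTEChi and 5.79 ± 0.192 CPM in WT mTEChi (SD, n = 3 each). Ccl1, a Ccr8 ligand, had 7.32 ± 2.64 CPM in KO mTEChi and 22.6 ± 5.41 CPM in WT mTEChi (log2 fold change -1.62, edgeR adjusted p = 0.0132), a call that some alternative settings did not keep. Ccr8, its receptor, had no count in the 3 KO mTEClo libraries and 7 counts in WT mTEClo. With KO set at 3 counts over the group, it was 5.02-fold lower there than in WT mTEClo. That value covers counting error in KO only and takes the 7 WT counts as exact. The Ccr8 call in mTEClo (log2 fold change -4.94, edgeR adjusted p = 0.0229) was lost without KO pool 5 or 6 or WT pool 2 or 3 (edgeR adjusted p = 0.0538 to 0.069).

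Cxcl14, an attractant of monocytes and dendritic cell precursors, was among the strongest falls. It had 1.28, 0.789 and 0.357 CPM in KO mTEClo, against 66.8, 48 and 46.7 CPM in WT mTEClo (log2 fold change -6.09 ± 0.42 SE, edgeR adjusted p = 1.84e-09). Cortical levels of Cxcl14 were 0.594, 0.453 and 0.0526 CPM in KO, against 15.7, 22.7 and 28 CPM in WT (log2 fold change -5.96 ± 0.46 SE, edgeR adjusted p = 3.23e-09). The mTEChi values were 0.956, 1.44 and 0.442 CPM in KO, against 4.15, 7.6 and 4.75 CPM in WT (log2 fold change -2.45 ± 0.47 SE, edgeR adjusted p = 0.000538). Most KO libraries held a trace of it at 1 CPM or less.

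Ccl21 and Ccl19 are the ligands of Ccr7 that draw positively selected thymocytes into the medulla. The Ccl21 genes lie on chromosome 4 as near-identical copies, Ccl21a at chr4:42772860-42773991, Ccl21b at chr4:42173120-42256825 and Ccl21d at chr4:41903613-41904743. Their coding sequences (GENCODE M21 transcripts, 402 bases) are identical for Ccl21b and Ccl21d, and Ccl21a differs from them by A84T and T194C, with the base of Ccl21b and Ccl21d given before the position, which is counted from 1 at the coding start. The stretch from 74 to 204 is shown because it holds both differences, in capitals, and shows how little separates the copies.
Ccl21b: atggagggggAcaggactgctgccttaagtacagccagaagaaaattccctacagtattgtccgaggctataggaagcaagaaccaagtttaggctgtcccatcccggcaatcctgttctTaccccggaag
Ccl21d: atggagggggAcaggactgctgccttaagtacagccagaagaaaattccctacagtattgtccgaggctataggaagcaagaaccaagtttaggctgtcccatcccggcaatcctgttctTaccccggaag
Ccl21a: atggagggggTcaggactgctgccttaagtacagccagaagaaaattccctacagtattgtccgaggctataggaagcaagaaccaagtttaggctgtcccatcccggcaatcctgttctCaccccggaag

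A read of 75 bases placed anywhere in this coding sequence would match all 3 copies in 178 of 328 positions (54.3%). This count leaves out the second read of a pair and the rest of the transcript. It is thus not the share of unresolved read pairs in these libraries. Values of single copies are uncertain, and their sum is the safer measure. The 3 genes summed to 576 ± 189 CPM in KO mTEClo and 1831 ± 26 CPM in WT mTEClo, to 273 ± 127 CPM in KO cTEC and 906 ± 169.9 CPM in WT cTEC, and to 102 ± 21.9 CPM in KO mTEChi and 62.4 ± 8.64 CPM in WT mTEChi (SD, n = 3 each). Counted as 1 gene, Ccl21 was lower in KO mTEClo (log2 fold change -1.67, edgeR adjusted p = 0.000111) and KO cTEC (-1.73, edgeR adjusted p = 4.2e-05), and in mTEChi its value of 0.71 did not pass the test (edgeR adjusted p = 0.0617). As deposited, Ccl21a had 303, 691 and 549 CPM in KO mTEClo, against 1528, 1576 and 1535 CPM in WT mTEClo, and KO pool 4 was lowest. The cTEC libraries had 356, 278 and 111 CPM in KO, against 662, 942 and 638 CPM in WT. In mTEChi it had 66.2, 91.7 and 98.2 CPM in KO, against 47.6, 56 and 41.6 CPM in WT, and this difference passed the test only under some alternative settings, as when KO pool 4 was left out (0.99, edgeR adjusted p = 0.0433). Ccl21b had 34.6, 38.5 and 33.3 CPM in KO mTEClo, against 188, 167 and 196 CPM in WT mTEClo (log2 fold change -2.37 ± 0.22 SE, edgeR adjusted p = 1.09e-07). Its KO effect differed between mTEChi and mTEClo by 2.58 ± 0.35 on the log2 scale (SE, edgeR adjusted p = 5.16e-05). Ccl19 was low throughout and fell in each subset, with 0.391 ± 0.18 CPM in KO mTEClo and 3.16 ± 1.17 CPM in WT mTEClo, and its cTEC log2 fold change of -2.39 became -1.78 without WT pool 2. In mTEChi its call was lost without KO pool 4 (-1.13, edgeR adjusted p = 0.0938).

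Cxcl9, Cxcl10 and Cxcl11, the interferon-inducible ligands of Cxcr3, lie together at chr5:92321331-92363296. Cxcl10 and Cxcl11 changed in opposite directions in medullary and cortical KO cells. Cxcl10 had 783, 909 and 908 CPM in KO mTEChi, against 1157, 1418 and 1323 CPM in WT mTEChi (log2 fold change -0.58 ± 0.14 SE, edgeR adjusted p = 0.00271). In mTEClo it had 367, 349 and 364 CPM in KO, against 754, 691 and 596 CPM in WT (log2 fold change -0.92 ± 0.14 SE, edgeR adjusted p = 3.44e-05). The order was turned round in cTEC, with 560.3, 599 and 414 CPM in KO, against 365, 390.3 and 302 CPM in WT (log2 fold change 0.57 ± 0.14 SE, edgeR adjusted p = 0.00176). The difference between mTEClo and cTEC was -1.49 ± 0.19 on the log2 scale (SE, edgeR adjusted p = 1.11e-05). Cxcl11 followed Cxcl10, with 33.3, 24.7 and 18.1 CPM in KO cTEC against 12.6, 13.4 and 10.8 CPM in WT cTEC (log2 fold change 1.05 ± 0.19 SE, edgeR adjusted p = 0.000116), and lower levels in KO mTEChi (-0.65, edgeR adjusted p = 0.0091) and KO mTEClo (-0.75, edgeR adjusted p = 0.00374). Cxcl9 was lower in cTEC, and had 7.13, 8.74 and 4.47 CPM in KO cTEC, against 16.6, 17.1 and 18.3 CPM in WT cTEC (log2 fold change -1.36 ± 0.18 SE, edgeR adjusted p = 3.45e-06). It was also lower in mTEClo (-0.77, edgeR adjusted p = 0.000991) and in mTEChi (-0.44, edgeR adjusted p = 0.0334), where the call was lost with no filter (edgeR adjusted p = 0.0567) and without KO pool 4 or 6 or WT pool 2 or 3 (-0.34 to -0.41, edgeR adjusted p = 0.0941 to 0.144). Cxcl10 and Cxcl11 overlap Art3, and with unstranded libraries reads of Art3 cannot be told apart from theirs. Among WT cells all 3 were higher in mTEChi than in cTEC, Cxcl9 most, at 161 and 17.3 CPM on average (log2 difference 3.22, edgeR adjusted p = 5.82e-12). Their receptor Cxcr3 was at or near 0 in mTEClo and cTEC. In mTEChi Cxcr3 had 2.27, 1.9 and 1.32 CPM in KO, against 0.554, 0.119 and 0.407 CPM in WT, where it had 6 counts. Its log2 fold change of 2.47 there missed the threshold (edgeR adjusted p = 0.0525). It passed with only the compared groups fitted (2.53, edgeR adjusted p = 0.00181).

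The upstream sequence of Cxcl10 is given because it holds a pair of TTTC repeats 2 bases apart, a core of interferon-responsive elements, together with 2 kappaB consensus stretches (RefSeq, GRCm38.p6, chr5:92348890-92349139, - strand). The capitals mark these matches, and the TTTC pair is read on the opposite strand, at position -213.
Cxcl10: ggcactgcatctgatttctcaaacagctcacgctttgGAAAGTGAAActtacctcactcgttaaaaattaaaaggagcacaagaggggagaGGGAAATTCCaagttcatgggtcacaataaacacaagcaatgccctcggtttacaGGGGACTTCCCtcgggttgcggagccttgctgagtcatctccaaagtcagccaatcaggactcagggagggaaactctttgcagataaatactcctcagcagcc

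Cxcl1, Cxcl2, Cxcl3 and Cxcl5 attract neutrophils through Cxcr2 and form a neighbourhood at chr5:90759298-90905938 with Cxcl15. In KO 0 were higher and 2 lower in mTEChi, 3 higher and 1 lower in mTEClo, and 1 higher and 3 lower in cTEC. Of all tested genes 17.1% were higher and 19.3% lower in mTEChi, 18.9% and 15.8% in mTEClo, and 22.3% and 26.7% in cTEC. None of the mTEClo calls held under every alternative. Cxcl15, called higher in KO mTEClo (log2 fold change 3.76, edgeR adjusted p = 0.0244), had 3 counts in WT mTEClo. Its call was lost without KO pool 6 or WT pool 1 or 2 (edgeR adjusted p = 0.0637 to 0.0913). Cxcl5 fell in each subset, with 8.15 ± 2.99 CPM in KO mTEChi and 21.1 ± 4.15 CPM in WT mTEChi (log2 fold change -1.36, edgeR adjusted p = 0.00102), and 4.09 ± 0.849 CPM in KO cTEC and 12.1 ± 2.7 CPM in WT cTEC (-1.55, edgeR adjusted p = 0.000127). In mTEClo its log2 fold change of -0.98 (edgeR adjusted p = 0.0109) was -0.77 and no longer called without KO pool 6 (edgeR adjusted p = 0.0677). Cxcl3 had 16.1, 19.7 and 17.5 CPM in KO mTEClo, against 5.31, 12.2 and 11 CPM in WT mTEClo. In cTEC Cxcl3 had 3.1, 3.43 and 3.42 CPM in KO, against 8.95, 11.6 and 27.9 CPM in WT. It was thus higher in KO mTEClo (log2 fold change 0.92, edgeR adjusted p = 0.0323) and lower in KO cTEC (-2.29, edgeR adjusted p = 1.48e-05), where it was -1.63 without WT pool 3. The mTEClo call was lost without WT pool 1 (0.62, edgeR adjusted p = 0.169). Cxcl1 had 43.9, 59.8 and 45.5 CPM in KO mTEClo and 34.1, 22.1 and 30.3 CPM in WT mTEClo, and its calls in mTEClo and cTEC did not hold when single libraries were left out, with edgeR adjusted p = 0.0902 without KO pool 5 in mTEClo and 0.0901 without WT pool 1 in cTEC. Cxcl2 was lower in KO mTEChi at 48.5 ± 14.1 CPM, against 101 ± 30.1 CPM in WT mTEChi (log2 fold change -1.05, edgeR adjusted p = 0.0134), a call lost without KO pool 4 (-0.82, edgeR adjusted p = 0.0756) or WT pool 1 (-0.78, edgeR adjusted p = 0.0851). The receptors Cxcr1 and Cxcr2 had 34 and 30 counts over all 18 libraries and were not tested.

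The upstream sequences of Cxcl3, Cxcl1 and Cxcl2 are set side by side because each carries the same kappaB consensus letters near the transcription start, though the genes moved differently (RefSeq, GRCm38.p6, + strand, chr5:90785851-90786100, chr5:90890995-90891244 and chr5:90903649-90903898 in that order). The capitals mark the kappaB match and, in Cxcl3, a TATAAA motif behind it.
Cxcl3: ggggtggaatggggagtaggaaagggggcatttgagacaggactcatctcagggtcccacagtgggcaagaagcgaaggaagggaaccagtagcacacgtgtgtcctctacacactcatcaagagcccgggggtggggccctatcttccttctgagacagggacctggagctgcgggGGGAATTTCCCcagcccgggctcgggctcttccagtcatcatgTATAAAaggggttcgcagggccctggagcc
Cxcl1: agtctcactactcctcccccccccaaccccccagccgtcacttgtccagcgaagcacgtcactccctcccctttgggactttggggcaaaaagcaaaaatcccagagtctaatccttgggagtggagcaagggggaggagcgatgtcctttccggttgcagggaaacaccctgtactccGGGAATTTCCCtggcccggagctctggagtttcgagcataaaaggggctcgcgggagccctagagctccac
Cxcl2: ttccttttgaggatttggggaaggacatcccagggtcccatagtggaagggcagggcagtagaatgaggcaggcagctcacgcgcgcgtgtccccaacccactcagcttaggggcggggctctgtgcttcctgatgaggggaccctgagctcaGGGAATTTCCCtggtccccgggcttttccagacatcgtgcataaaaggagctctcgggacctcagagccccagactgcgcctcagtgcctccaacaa

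Over the whole set, RefSeq promoter windows from 250 bases before to 50 after the start were at hand for 47 promoters of tested members. They covered 43 of the 57 tested members, and Ccl2, Ccl7, Ccl11 and Ccr7 were not among them. A kappaB consensus match on either strand was found in 12 of 47 (25.5%), against 2779 of 32851 promoters of all genes (8.46%). TATAAA was found in 13 (27.7%), against 4473 (13.6%), and the pair of TTTC repeats in 3 (6.38%), against 1131 (3.44%). The kappaB matches fell on members that were lower in all 3 subsets (Ccl20), opposite between subsets (Cxcl3, Cxcl10) and called in none (Ccr6). Neighbouring members can share sequence, so the promoters are not independent of each other.

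Among the remaining epithelial chemokines, Cxcl17, an attractant of myeloid cells at mucosal surfaces, had 26.4, 44.2 and 47.2 CPM in KO mTEClo, against 13.4, 12.4 and 6.99 CPM in WT mTEClo (log2 fold change 1.83 ± 0.35 SE, edgeR adjusted p = 0.000455). In cTEC it had 82.6, 101 and 148 CPM in KO, against 47.3, 16.2 and 18.8 CPM in WT, a log2 fold change of 2.02 that became 2.66 without WT pool 1. In mTEChi Cxcl17 had 10.6 ± 2.96 CPM in KO and 15.1 ± 1.22 CPM in WT and was not called. Cxcl16, the membrane-bound ligand of Cxcr6, had 186, 160.5 and 179 CPM in KO mTEChi, against 129.9, 115 and 105 CPM in WT mTEChi (log2 fold change 0.59 ± 0.11 SE, edgeR adjusted p = 0.000625), and overlaps Zmynd15. Cx3cl1, the membrane-bound ligand of Cx3cr1, was most abundant in cTEC, at 244 ± 43 CPM in KO and 229.7 ± 17.7 CPM in WT, which did not pass the test (edgeR adjusted p = 0.65). In WT cells it was lower in mTEChi than in cTEC, at 45.6 and 229.7 CPM on average (log2 difference -2.32). Ccl28, a mucosal attractant, was low in all groups and opposite between subsets, at 1.08 ± 0.245 CPM in KO mTEChi and 4.72 ± 0.487 CPM in WT mTEChi, and 3.83 ± 0.593 CPM in KO cTEC and 0.908 ± 0.746 CPM in WT cTEC, and its mTEChi call was lost without KO pool 5 (log2 fold change -1.95, edgeR adjusted p = 0.0648). Cxcl13, the B cell attractant, was lower in KO cTEC (log2 fold change -2.63, edgeR adjusted p = 0.001), but the groups overlapped and the value was -1.25 without WT pool 3, which had 20.6 CPM.

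Ccr7, the receptor for Ccl19 and Ccl21 at chr11:99144199-99155077, was the most abundant receptor of mTEChi. It had 72.1, 64.1 and 52.9 CPM in KO mTEChi, against 128, 116 and 100.2 CPM in WT mTEChi (log2 fold change -0.86 ± 0.19 SE, edgeR adjusted p = 0.00149). In mTEClo it had 4.87, 7.49 and 3.62 CPM in KO, against 13.9, 10.9 and 10.4 CPM in WT (log2 fold change -1.15 ± 0.22 SE, edgeR adjusted p = 0.000463). Levels of Ccr7 in cTEC were 3.37, 3.69 and 3.15 CPM in KO, against 45.9, 32.3 and 37.4 CPM in WT (log2 fold change -3.50 ± 0.22 SE, edgeR adjusted p = 2.3e-10). The groups did not overlap in any subset, and the fall was larger in cTEC than in mTEClo (difference 2.35 ± 0.31 SE on the log2 scale, edgeR adjusted p = 1.4e-05).

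Ccr1, Ccr2 and Ccr3, receptors for inflammatory CC chemokines, lie with Ccr9, Cxcr6 and Xcr1 at chr9:123767211-124109140, and are known mostly from myeloid cells. Ccr2, the monocyte receptor for Ccl2 at chr9:124101918-124109140, had 9.67, 9.01 and 11.6 CPM in KO mTEClo, against 3.06, 0.777 and 3.42 CPM in WT mTEClo (log2 fold change 2.06 ± 0.31 SE, edgeR adjusted p = 3.71e-05). In cTEC it had 1.39, 1.17 and 1.16 CPM in KO, against 15.4, 10.5 and 17 CPM in WT (log2 fold change -3.53 ± 0.31 SE, edgeR adjusted p = 1.9e-08). The KO effect was higher in mTEClo than in cTEC by 5.58 ± 0.44 on the log2 scale (SE, edgeR adjusted p = 2.75e-08). In mTEChi it had 29.4, 27.2 and 29.7 CPM in KO, against 18.3, 13.5 and 16.1 CPM in WT (log2 fold change 0.86, edgeR adjusted p = 0.0162), a call lost without WT pool 2 (0.76, edgeR adjusted p = 0.0703). Ccr2 therefore rose where its ligand Ccl2 fell, in both medullary subsets, and both fell in cTEC. Ccr1 was lower in mTEClo, at 1.35, 0.676 and 1.58 CPM in KO against 8.48, 3.63 and 6.84 CPM in WT (log2 fold change -2.39 ± 0.36 SE, edgeR adjusted p = 3.55e-05), and in cTEC (-3.67 ± 0.38 SE, edgeR adjusted p = 1.55e-07). The Ccr3 call in cTEC rested on WT pool 2: the log2 fold change of -2.86 was -1.09 without it (edgeR adjusted p = 0.431). The summed Ccr1, Ccr2 and Ccr3 was 40.2 ± 2.96 CPM in KO mTEChi and 23.7 ± 5.02 CPM in WT mTEChi, 12 ± 2.14 CPM in KO mTEClo and 9.15 ± 3.83 CPM in WT mTEClo, and 2.05 ± 0.284 CPM in KO cTEC and 24.2 ± 1.13 CPM in WT cTEC (SD, n = 3 each). Tuft cell markers showed the directions of Ccr2, with 6 higher and 0 lower in KO mTEChi, 5 higher and 0 lower in KO mTEClo, and 0 higher and 7 lower in KO cTEC. In cTEC macrophage and dendritic cell markers were lower too (6 of 14 tested, none higher), with Lyz2 at 27.8 ± 5.02 CPM in KO and 152 ± 43 CPM in WT. In mTEChi that list moved opposite to Ccr2. The part of either cell type in the receptor values was not tested.

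Ccr9, the receptor for Ccl25, and Cxcr4, the receptor for Cxcl12, are known from thymocytes, and both were higher in KO cTEC. Ccr9 had 45.5, 23.2 and 23.3 CPM in KO cTEC, against 13.2, 12 and 4.15 CPM in WT cTEC (log2 fold change 1.65 ± 0.38 SE, edgeR adjusted p = 0.00131). Cxcr4 had 4.16, 2.91 and 2.31 CPM in KO cTEC, against 1.02, 1.54 and 0.745 CPM in WT cTEC (log2 fold change 1.49 ± 0.33 SE, edgeR adjusted p = 0.000993). Neither passed the test in mTEChi or mTEClo. The KO effect on Ccr9 was lower in mTEChi than in cTEC (difference -1.62 ± 0.56 SE on the log2 scale, edgeR adjusted p = 0.0332), a call lost with only the compared groups fitted (-1.49, edgeR adjusted p = 0.067) and when any of 5 single libraries was left out (-1.19 to -1.57, edgeR adjusted p = 0.0632 to 0.121, the last without KO cTEC pool 4). The effect on Cxcr4 did not pass this test (-1.08 ± 0.45 SE, edgeR adjusted p = 0.0764). Thymocyte markers were higher in the same libraries, with 10 of 15 higher and 0 lower and a summed level of 288 to 463 CPM in KO cTEC against 58 to 144 CPM in WT cTEC, and their part in the Ccr9 and Cxcr4 values was not tested. Cxcr5, Cxcr6, Ccr10 and Xcr1 passed the test in no subset, and Cxcr5 had 23.9, 21.2 and 22.1 CPM in KO mTEChi and 17.2, 17 and 13 CPM in WT mTEChi. Cx3cr1 in cTEC was called lower through WT pool 3 alone, since its log2 fold change of -2.50 turned to 0.76 without that library (edgeR adjusted p = 0.543).

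The atypical receptors showed no common direction. Ackr4, which takes up Ccl19, Ccl21 and Ccl25 and lies at chr9:104097682-104126643, had 11, 12.4 and 13 CPM in KO mTEChi, against 4.43, 7.01 and 4.34 CPM in WT mTEChi (log2 fold change 1.15 ± 0.19 SE, edgeR adjusted p = 0.000146). In mTEClo it had 43.2, 45.3 and 47.6 CPM in KO, against 34.7, 23.8 and 25.6 CPM in WT (log2 fold change 0.69 ± 0.14 SE, edgeR adjusted p = 0.000917). In cTEC it had 119, 128 and 124 CPM in KO, against 151, 185 and 163 CPM in WT. The cTEC log2 fold change of -0.42 ± 0.13 (SE, edgeR adjusted p = 0.0131) was -0.34 without WT pool 2 and no longer called (edgeR adjusted p = 0.0622). The KO effect was higher in mTEChi than in cTEC by 1.58 ± 0.23 on the log2 scale (SE, edgeR adjusted p = 3.95e-05). Ackr4 overlaps Acad11, so its reads are uncertain. Ackr3, which scavenges Cxcl12, had 29.8, 32.1 and 28.4 CPM in KO cTEC, against 15.4, 19.9 and 21.1 CPM in WT cTEC (log2 fold change 0.68 ± 0.17 SE, edgeR adjusted p = 0.00297). Cxcl12, Cxcr4 and Ackr3 were thus all higher in KO cTEC. Ackr2, which takes up inflammatory CC chemokines, was under 1.1 CPM in every mTEClo and cTEC library and lower in KO in both. KO mTEClo and KO cTEC held 3 counts each, so the size of the fall is uncertain. In mTEClo its log2 fold change of -3.58 became -4.37 without KO pool 5. In cTEC it was -2.75, and KO pools 4 and 5 had no count. The -5.49 fitted without KO pool 6 thus sets a KO group with no count against WT cTEC. Ackr1, the receptor of venular endothelium and red cells, fell in mTEChi (-2.09, edgeR adjusted p = 0.0174), a call that some alternatives did not keep, and was -2.91 without KO pool 5.

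The size of the KO effect differed between subsets for many members. The effect in mTEChi was above that in mTEClo for 15 members and below it for 6, where 6.72% and 6.78% of all tested genes were (13.5% in either direction). Set against cTEC, the mTEChi effect was above for 21 and below for 8, where 18.3% and 13.2% of all tested genes were (31.5% in either direction). The mTEClo effect was above that in cTEC for 11 members and below it for 3, where 16.4% and 9.54% of all tested genes were (26.0% in either direction). These comparisons share libraries with the KO and WT comparisons above and with each other. Between WT subsets, 42 members were higher and 11 lower in mTEChi than in mTEClo, where 32.6% and 26.7% of all tested genes were (59.3% in either direction). Against WT cTEC, 33 were higher and 15 lower in WT mTEChi, where 35.9% and 28.5% of all tested genes were (64.4% in either direction). In WT mTEClo 14 were higher and 15 lower than in WT cTEC, where 13.0% and 14.4% of all tested genes were (27.4% in either direction). Ccl5 was higher in WT mTEChi than in WT mTEClo, at 177 and 7.93 CPM on average (log2 difference 4.49 ± 0.31 SE, edgeR adjusted p = 3.78e-10), and so was Ccr7, at 115 and 11.7 CPM (3.28 ± 0.21 SE, edgeR adjusted p = 1.36e-10). Ccl25 was higher in WT mTEChi than in WT mTEClo, at 1058 and 108 CPM (3.29 ± 0.21 SE, edgeR adjusted p = 1.17e-10), while WT mTEChi and WT cTEC, at 1058 and 818 CPM, did not pass the test (0.37 ± 0.19 SE, edgeR adjusted p = 0.095). With the mouse pool as a block, which pairs the subsets, this Ccl25 difference passed (0.39, edgeR adjusted p = 0.04), and WT mTEChi was above WT cTEC in each of the 3 pools. Ackr4 was lowest in WT mTEChi at 5.26 CPM, against 28 CPM in WT mTEClo and 166 CPM in WT cTEC (log2 difference to cTEC -4.93 ± 0.18 SE, edgeR adjusted p = 6.19e-14). Ccl25, Cxcl12 and Ackr4 thus had their lowest WT level in different medullary subsets, Ccl25 in mTEClo and the other 2 in mTEChi.

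Genes that act downstream of chemokine receptors were counted in the same way. Of 38 tested genes of G protein, phosphoinositide 3-kinase and Rac signalling, 14 were higher and 9 lower in KO mTEChi, 14 higher and 7 lower in KO mTEClo, and 7 higher and 20 lower in KO cTEC, with medians of 0.04, 0.18 and -0.53 on the log2 scale. Over all tested genes 17.1% were higher and 19.3% lower in mTEChi, 18.9% and 15.8% in mTEClo, and 22.3% and 26.7% in cTEC. Plcb2, a phospholipase activated by G protein subunits, was higher in KO mTEClo at 370.3 ± 15.8 CPM against 185 ± 41.8 CPM in WT mTEClo (log2 fold change 1.00, edgeR adjusted p = 0.000116), and lower in KO cTEC at 18 ± 1.16 CPM against 121 ± 26.7 CPM in WT cTEC (-2.75, edgeR adjusted p = 4.18e-10). Pik3cg and Pik3r5, subunits of the kinase that answers chemokine receptors in blood cells, and the exchange factor Vav1 had the same directions, though Pik3r5 missed the threshold in mTEClo. These genes are also expressed by tuft cells, whose markers moved in the same directions, and that relation was not tested. Gnai1, an inhibitory G protein subunit, was lower in KO cTEC at 4.31 ± 0.274 CPM against 38.3 ± 2.14 CPM in WT cTEC (log2 fold change -3.15, edgeR adjusted p = 1.08e-10), whereas Gnai3 was higher in KO in each subset (0.35, 0.86 and 0.96 in mTEChi, mTEClo and cTEC). Of 11 tested genes that cut or accompany chemokines, 4 were higher and 0 lower in KO mTEChi, 2 higher and 2 lower in KO mTEClo, and 3 higher and 2 lower in KO cTEC. The called share of this list was close to that of all tested genes in mTEChi (36.4%) and mTEClo (34.7%), so these counts are not a result about the list. Dpp4, a peptidase that trims the N terminus of Cxcl12 and Ccl11 among others, was higher in each subset, most in mTEClo at 20.6 ± 2.97 CPM in KO and 2.86 ± 0.579 CPM in WT (log2 fold change 2.82, edgeR adjusted p = 2.15e-07).

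Of the 61 members, 4 were not tested: Ccl26 had no count in any library, and Ccl27b, Cxcr1 and Cxcr2 fell under the filter. Another annotated gene overlapped 23 members, 22 of them tested, and for these the unstranded counts are uncertain.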

How the data were processed

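RNA of sorted TEC was reverse transcribed with an ultra-low input template-switching kit, turned into unstranded libraries and sequenced as 75-base read pairs, per the labels' protocols. The deposited values are raw counts per gene made with featureCounts on mm10, per the submitters' processing notes, with no normalization. The aligner and annotation version are not named in them. Library totals were 3554089 to 20054360 counts, and the depth of low members limits their precision. Depth differed by genotype in mTEClo, with 14411708 to 19356071 counts in KO against 6565309 to 9815559 in WT, without overlap. In mTEChi the totals were 6802970 to 13373646 in KO and 3554089 to 8445355 in WT, which overlapped. The cTEC ranges overlapped too.

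Counts were analysed with edgeR 4.0.16 (limma 3.58.1, R 4.3.3): filterByExpr with a minimum count of 10, TMM scaling, a quasi-likelihood fit of all 6 groups with 12 residual degrees of freedom, and Benjamini-Hochberg adjustment over 19364 genes at 0.05. The fit was tested on simulated data. CPM use the TMM-scaled library sizes. Replicates are mouse pools as labelled, so p-values of KO against WT within a subset measure the spread between pools. The main fit has no pool term and takes all libraries as independent. The p-values of the interactions and of the WT subset comparisons therefore ignore the pairing of subsets by pool. The KO effect was compared between subsets by interaction terms, and WT subsets with each other. Alternatives were relative log expression scaling, no filter, DESeq2 1.42.0, a fit of the compared groups alone, leaving out each library, the mouse pool as a block, and near-identical genes summed. The members and gene lists were chosen with earlier results of these data known. By rule, full values are given for up to 8 members with the smallest adjusted p per comparison of KO and WT. The rule also takes in the 3 most abundant chemokines and the 3 most abundant receptors, but Ccl21a and Ccr6 lack some values. The strongest interaction results are given likewise. Of the strongest WT subset results only some are given, and no test value is given for WT mTEClo against WT cTEC. Members named beyond that rule were chosen after their values were seen. Counts cover all members, and 1 member is not reported here by name.

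Libraries of 1 pool come from the same mice, so pool numbers pair subsets within a genotype. The correlation of deviations from the group means was -0.000944 to 0.239 for the 18 pairs from the same pool (median 0.0602) and -0.181 to 0.0577 for the 36 pairs from different pools (median -0.0276). KO and WT pools are different mice and share no number. RefSeq promoter windows (GRCm38.p6) were matched for 46 members by symbol or gene ID, 43 of them tested.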

Additional observations from a re-analysis of the deposited data

Results flagged for a closer look

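The KO effect (log2 fold change of KO over WT) differed between subsets by an interaction test for the members below, each given as the difference with its SE and edgeR adjusted p (Benjamini-Hochberg). These tests do not pair the subsets by mouse pool. For each difference the named members are those with the smallest adjusted p, together with those called in opposite directions in the 2 subsets.

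In mTEChi minus mTEClo, the difference was 2.40 for Ccl7 (SE 0.37, adjusted p = 0.000186), 2.84 for Ccl11 (SE 0.39, adjusted p = 4.96e-05), 3.75 for Ccl3 (SE 0.59, adjusted p = 0.0002) and 2.58 for Ccl21b (SE 0.35, adjusted p = 5.16e-05). These 4 had a more negative KO effect in mTEClo. For Cxcl12 the difference was 1.02 (SE 0.19, adjusted p = 0.000852), with the larger rise in mTEChi.

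In mTEChi minus cTEC, the difference was 3.84 for Ccl11 (SE 0.41, adjusted p = 7.94e-07), 2.29 for Ccl9 (SE 0.19, adjusted p = 2.37e-08) and 2.85 for Ccl6 (SE 0.24, adjusted p = 3.31e-08), all with a more negative KO effect in cTEC. Members called in opposite directions were Ccl28 at -4.23 (SE 0.90, adjusted p = 0.00126), Cxcl10 at -1.16 (SE 0.19, adjusted p = 0.000136) and Cxcl11 at -1.69 (SE 0.26, adjusted p = 5.45e-05), which were lower in KO mTEChi and higher in KO cTEC. Ccl28 was no longer called in mTEChi without KO pool 5 (log2 fold change -1.95, adjusted p = 0.0648). Ackr4 at 1.58 (SE 0.23, adjusted p = 3.95e-05) and Ccr2 at 4.39 (SE 0.41, adjusted p = 1.17e-07) were higher in KO mTEChi and lower in KO cTEC. Without WT pool 2, Ccr2 was no longer called in mTEChi (log2 fold change 0.76, edgeR adjusted p = 0.0703), nor Ackr4 in cTEC (-0.34, edgeR adjusted p = 0.0622).

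In mTEClo minus cTEC, the difference was 1.40 for Ccl9 (SE 0.19, adjusted p = 1.8e-05) and 2.35 for Ccr7 (SE 0.31, adjusted p = 1.4e-05), both with a more negative KO effect in cTEC. Higher in KO mTEClo and lower in KO cTEC were Cxcl3 at 3.21 (SE 0.47, adjusted p = 3.95e-05, and 2.56 without WT cTEC pool 3), Ackr4 at 1.11 (SE 0.20, adjusted p = 0.000308) and Ccr2 at 5.58 (SE 0.44, adjusted p = 2.75e-08). Lower in KO mTEClo and higher in KO cTEC were Ackr3 at -1.20 (SE 0.26, adjusted p = 0.00178), Cxcl10 at -1.49 (SE 0.19, adjusted p = 1.11e-05) and Cxcl11 at -1.80 (SE 0.26, adjusted p = 4.24e-05). Ackr4 was no longer called in cTEC without WT pool 2 (log2 fold change -0.34, adjusted p = 0.0622). Cxcl3 was no longer called in mTEClo without KO pool 5 or 6 or WT pool 1 (log2 fold change 0.62 to 0.94, edgeR adjusted p = 0.0621 to 0.169). Ackr3 was no longer called in mTEClo (log2 fold change -0.53, adjusted p = 0.0379) with no filter (adjusted p = 0.0633) and without KO pool 4 or 5 or WT pool 1 or 2 (-0.37 to -0.57, adjusted p = 0.0599 to 0.183).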

How the results depend on the processing

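With only the compared groups fitted, 10 members were higher in KO mTEChi (6 with all groups). Leaving out 1 library gave 4 to 6 higher and 18 to 24 lower members in mTEChi, 6 to 8 and 21 to 26 in mTEClo, and 9 to 11 and 27 to 29 in cTEC. Calls that held under every alternative were 20 of 31 in mTEChi, 25 of 32 in mTEClo and 33 of 41 in cTEC. Of the values named by rule, 980 kept direction and call, 7 lost their call, 4 gained one and none turned. These were mostly picked by the smallest adjusted p in the same libraries, so their stability is no support for them. Among the other members, Cx3cr1 in cTEC turned to 0.76 without WT pool 3. With the mouse pool as a block, 10 members had a lower KO effect in mTEChi than in mTEClo (6 without it), where Cxcl2 (-1.26, edgeR adjusted p = 0.00673), Ccr2 (-1.27, 0.0153), Cxcl13 (-2.28, 0.0275) and Cxcl15 (-4.39, 0.0435) were added, and 13 member calls changed in all. Over all genes, the count lower in KO mTEChi was 2436 without WT mTEChi pool 3 (3741 with it). With only the compared groups fitted, 2482 genes had a higher KO effect in mTEChi than in mTEClo (1301 in the fit of all groups), 1647 a lower effect in mTEChi than in cTEC (2562), and 1161 were higher in WT mTEClo than in WT cTEC (2515). Without WT mTEClo pool 2, 1216 genes had a lower effect in mTEClo than in cTEC (1848 with it). The block could not be used for KO against WT within a subset, because the pools differ. Low counts limit Ccl12, Ccl19, Ccl28, Ackr2, Ccr3, Ccr8 and Cx3cr1.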
